A study of Mus musculus with 6 samples.

Results

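The locus of Pparg (ENSMUSG00000000440.12), which encodes peroxisome proliferator-activated receptor gamma, was examined in the ATAC-seq peak lists of 6 libraries of mouse adipocytes differentiated in culture. Its members were all peaks with a summit from 150 kb before to 100 kb after the gene, which lies on the plus strand of chromosome 6 at chr6:115360951-115490399 in GENCODE release M21 (mm10, also called GRCm38). The window chr6:115210951-115590399 spanned 379.4 kb and held 40 and 47 peaks in the beige libraries, 42 and 45 in the white and 49 and 40 in the brown, out of 109143 to 127490 peaks per list. Peaks that overlapped by at least 1 bp were merged over the libraries into 58 regions, of 194610 regions in the genome. A region is named here by the distance of its lead summit from the first start of Pparg, the lead being the summit, of all 6 libraries, that ranked highest in its own list by -log10 q, the significance MACS2 gives a peak.

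ATAC-seq marks open chromatin by the sites where a transposase can insert sequencing adaptors. The stromal vascular fraction, the non-adipocyte cells of a fat pad, was taken from wild type male C57BL/6J mice 3 to 4 weeks old and collected at day 7 of differentiation, with 2 libraries per condition. Beige and white adipocytes came from the same inguinal depot, and brown adipocytes from brown adipose tissue. The beige and brown media held 5 µM dexamethasone, 0.5 mM isobutyl methylxanthine, 1 nM T3 and 1 µM rosiglitazone, and after 48 h insulin, T3 and rosiglitazone. The white medium held 1 µM dexamethasone and 0.5 mM isobutyl methylxanthine without T3 or rosiglitazone, and after 48 h insulin alone. By the labels insulin was at 5 µg/ml in all of them. The paper's methods give other insulin doses and do not describe the brown libraries, whose sample records are numbered apart from the rest, so depot and a separate deposit cannot be told apart. Beige and white cultures therefore shared the depot and differed in medium, beige and brown shared the medium and differed in depot, and rosiglitazone was never given without T3 and the higher dexamethasone, so these agents cannot be told apart. The labels do not say whether the 2 libraries of a condition came from separate animals, so the spread given here may be partly technical.

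PPARγ is a nuclear receptor that binds DNA with RXR, drives the formation of fat cells and is the target of rosiglitazone. Its gene has alternative promoters: an upstream start gives the shorter protein PPARγ1, found in many tissues, and a later start gives PPARγ2, found mainly in fat cells. C/EBPβ and C/EBPδ, induced early by the differentiation cocktail, and later C/EBPα are known activators of the gene, and the glucocorticoid receptor, which dexamethasone activates, acts beside them.

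GENCODE places 3 coding starts in the gene. Pparg-202 and Pparg-204 begin 1341 bp apart and both encode 475 residues. Pparg-201 begins 61115 bp after the first start and encodes 505 residues, 30 more, which makes it the Pparg2 start. The sequences below were read from the plus strand of the NCBI GRCm38 genome, and capitals mark matches to a short consensus on either strand. They are the region 964 bp before the Pparg2 start by its lead summit (chr6:115421042-115421202) and the summit at the Pparg2 promoter (chr6:115421752-115421952), both with C/EBP matches (TTGCNNAA). They are followed by 2 further regions inside the gene, +63.7 kb (chr6:115424557-115424717, C/EBP) and +102.1 kb (chr6:115463017-115463216, AP1, TGANTCA). The +102.1 kb stretch runs from an intron into a coding exon. Then come -11.1 kb (chr6:115349812-115349972, glucocorticoid receptor, ACANNNTGT), +150.7 kb (chr6:115511511-115511750, C/EBP) and +162.4 kb (chr6:115523188-115523408, C/EBP). The first 3 are shown because they carry the Pparg2 promoter and the DNA beside it, -11.1 kb and +102.1 kb because they were the strongest regions outside promoters before and inside the gene in most libraries, +150.7 kb because it ordered the conditions with no overlap, and +162.4 kb because it held the most C/EBP matches.
+60.2 kb: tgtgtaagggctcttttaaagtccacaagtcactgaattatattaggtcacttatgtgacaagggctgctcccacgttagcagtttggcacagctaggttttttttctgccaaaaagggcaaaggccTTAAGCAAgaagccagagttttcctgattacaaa
+60.9 kb, Pparg2 promoter: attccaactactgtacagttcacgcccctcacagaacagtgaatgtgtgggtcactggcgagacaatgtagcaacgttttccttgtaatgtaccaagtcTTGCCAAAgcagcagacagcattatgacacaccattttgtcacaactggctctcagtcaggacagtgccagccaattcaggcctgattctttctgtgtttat
+63.7 kb: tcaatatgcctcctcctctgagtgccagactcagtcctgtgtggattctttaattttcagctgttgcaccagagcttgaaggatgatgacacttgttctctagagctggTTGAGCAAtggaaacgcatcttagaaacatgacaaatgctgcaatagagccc
+102.1 kb: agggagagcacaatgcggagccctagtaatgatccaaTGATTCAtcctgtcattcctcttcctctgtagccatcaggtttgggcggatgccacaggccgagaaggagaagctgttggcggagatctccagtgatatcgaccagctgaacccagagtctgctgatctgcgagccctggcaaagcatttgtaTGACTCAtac
-11.1 kb: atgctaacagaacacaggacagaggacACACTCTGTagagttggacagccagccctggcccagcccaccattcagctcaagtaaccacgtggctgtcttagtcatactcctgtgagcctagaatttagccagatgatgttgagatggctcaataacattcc
+150.7 kb: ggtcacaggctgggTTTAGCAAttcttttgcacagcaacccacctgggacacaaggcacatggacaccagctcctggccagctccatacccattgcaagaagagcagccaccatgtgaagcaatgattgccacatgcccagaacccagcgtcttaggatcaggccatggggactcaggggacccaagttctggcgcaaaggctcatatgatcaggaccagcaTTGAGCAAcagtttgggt
+162.4 kb: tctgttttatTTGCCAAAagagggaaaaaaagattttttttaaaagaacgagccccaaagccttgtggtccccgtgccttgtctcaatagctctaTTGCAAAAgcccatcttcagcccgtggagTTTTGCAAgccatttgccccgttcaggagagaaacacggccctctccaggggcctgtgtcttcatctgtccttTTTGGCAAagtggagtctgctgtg

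Most of the strong open chromatin around Pparg was shared by the 3 kinds of adipocyte. Of the 58 regions 28, or 48.3%, had a peak in all 6 libraries, against 30.2% of all regions in the genome. All 3 promoter regions were among them, with 5 of the 14 regions inside the gene, 12 of the 23 upstream and 8 of the 18 downstream. Windows drawn the same way around the 21755 protein-coding genes of chromosomes 1 to 19 and X had a median of 11.5 regions per 100 kb, and Pparg had 15.3, more than 75.4% of them. The share of regions with a peak in all 6 libraries was smaller than that of Pparg around 88.5% of the genes, with a median of 34.3%.

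No region of the window was present in both libraries of 1 kind of adipocyte, or of 2 kinds that include brown, and absent from the others. There were 0 regions in both beige and both brown libraries and no white one (1.25% of all regions in the genome), 0 in both white and both brown and no beige (0.243%), 0 in beige alone (1.94%), 0 in white alone (1.23%) and 0 in brown alone (0.877%). With 58 regions these shares amount to very few regions, so a count of 0 is near the background. The 1 region in both beige and both white libraries and in neither brown one (1.16% of the genome's regions) was at +162.7 kb (chr6:115523550-115523765), next to the stronger region +162.4 kb, and lay at percentiles of 2.87 and 2.02 in beige and 1.97 and 6.64 in white. It was thus among the weakest peaks of its 4 lists. The other 29 regions had a peak in at least 1 library of some condition and not in the other library of that condition.

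Most peaks found in fewer than 6 libraries were weak by -log10 q. MACS2 gives each summit a -log10 q value, and the authors kept those with q under 0.05. The median -log10 q was 33.5 over the 168 strongest peaks of the regions in all 6 libraries and 5.87 over the 74 of the other regions. The 13 regions found in a single library had a median of 4.35 and a median width of 160 bp, against 608.5 bp for the regions of all 6. A region spans all its merged peaks, so those of all 6 libraries are wider in part by construction. Of these 13 regions, 4 were in brown replicate 1 and 3 each in brown replicate 2 and beige replicate 2, with 2 in white replicate 1, 1 in beige replicate 1 and 0 in white replicate 2. Where all 6 libraries had the region, the strongest summits of the libraries lay a median of 74 bp apart.

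**Figure D1:**
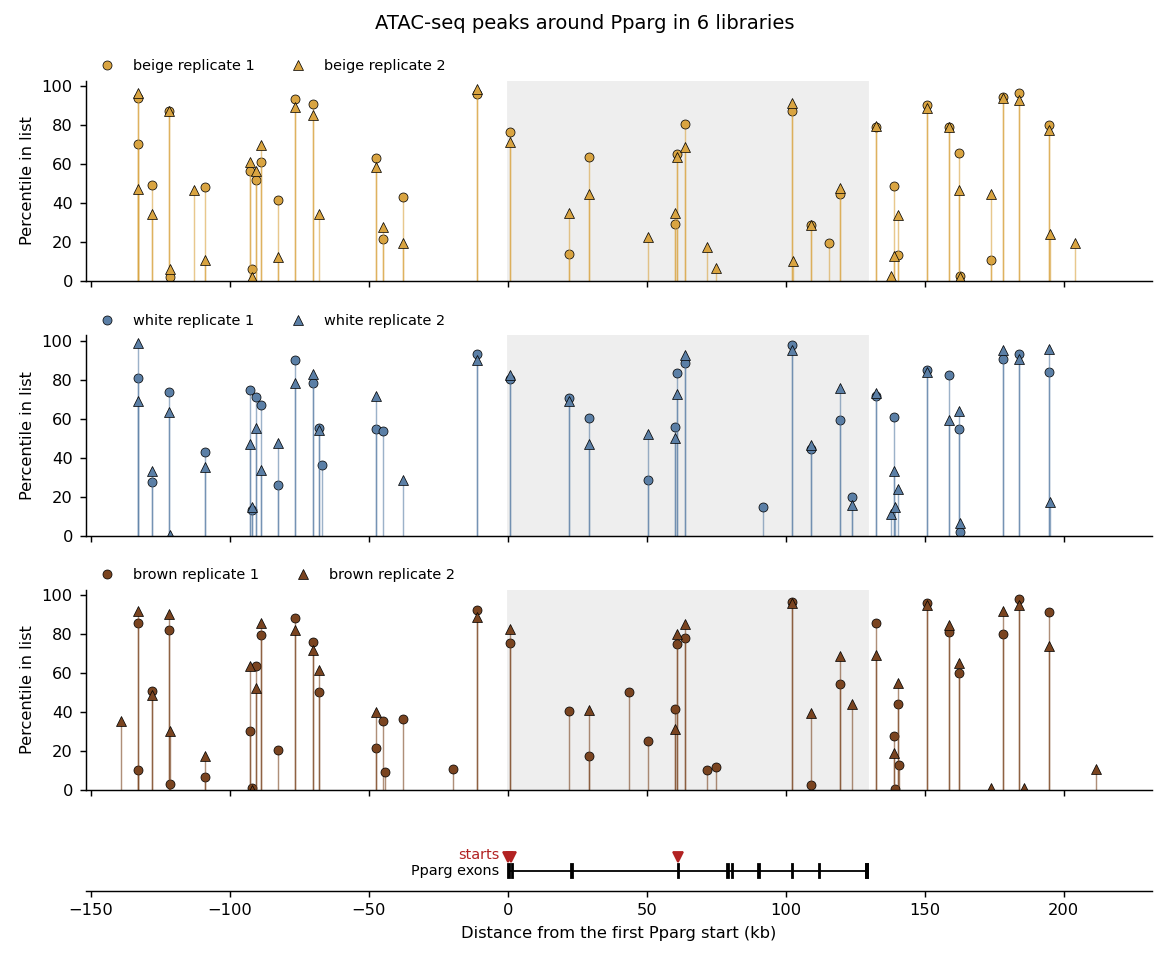
Percentile of each region (y axis, from 0 for the weakest to 100 for the strongest peak of a library's list) against distance of its summit from the first Pparg start (x axis, kb), in 1 panel per condition, with circles and triangles for replicates 1 and 2 and a line from each point to 0. The grey band and the lowest panel show the gene, its exons and its starts (red); the tall regions recur in all 6 libraries, among them -11.1 kb and +102.1 kb at percentiles of 87.2 to 98.8.

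The strength of a peak is given as its percentile in its own list, ranked by the authors' fold enrichment at the summit, because the lists hold no read counts and the folds of different libraries are not on 1 scale. Over all regions in all 6 libraries, the percentiles of the 2 replicates differed by a median of 5.40 in beige, 8.37 in white and 6.14 in brown.

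At the Pparg1 promoter an open region of 1739 bp, merged over the libraries (chr6:115360795-115362533), covered both upstream starts. In brown replicate 1 it was made of separate peaks at chr6:115360795-115362091 and chr6:115362107-115362492, with a start in each. The region lay at percentiles of 76.8 and 71.5 in the beige libraries, 80.3 and 82.4 in the white and 75.5 and 82.6 in the brown. Both beige values were below both white values, and the brown values spanned the range from beige to white. The means were 74.1 ± 3.75 in beige, 81.4 ± 1.46 in white and 79.0 ± 5.07 in brown (SD, n = 2).

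The interior of this region had the same layout in nearly every library. In 5 libraries the strongest summit was 76 to 106 bp after the first start, while in white replicate 2 it was at 931 bp and the summit near the first start was at 155 bp. In all 6 libraries another summit lay 19 to 51 bp before the start of Pparg-204. The fold enrichment of that summit divided by the fold of the summit near the first start was 0.705 and 0.801 in beige, 0.760 and 0.822 in white and 0.650 and 0.828 in brown. The conditions overlapped in this ratio, so the relative opening at the 2 upstream starts could not be told apart between them.

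The Pparg2 promoter had an open region of 538 bp (chr6:115421688-115422225), with its strongest summit 190 to 214 bp before the start in all 6 libraries. Its percentiles were 65.5 and 63.7 in beige, 83.7 and 72.6 in white and 74.9 and 80.1 in brown. The beige libraries were below all the white and brown ones, and white and brown overlapped. The means were 64.6 ± 1.32, 78.2 ± 7.81 and 77.5 ± 3.64 (SD, n = 2). The region 964 bp before the start by its lead summit (+60.2 kb, chr6:115420972-115421331) was weaker everywhere, at 29.4 and 34.8 in beige, 55.8 and 50.04 in white and 41.8 and 31.2 in brown. Here both white libraries were above all the others, and brown and beige overlapped.

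Ranked by fold, the upstream promoter was the stronger in every library but white replicate 1, and only narrowly in brown. The percentile of the Pparg1 region exceeded that of the Pparg2 region by 11.2 and 7.78 in beige, 9.76 in white replicate 2 and 0.535 and 2.56 in brown, and was lower by -3.35 in white replicate 1. The white libraries lay on both sides of 0 and spanned the brown values and 1 of the beige values, so the balance of the promoters did not separate white from the other conditions. The values of both beige libraries were above both brown values. Ranked by -log10 q, the Pparg1 region was lower than the Pparg2 region in brown replicate 1, at 81.7 against 82.84. In white replicate 1 the 2 regions were nearly level on that ranking, at 85.52 and 85.38.

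**Figure D2:**
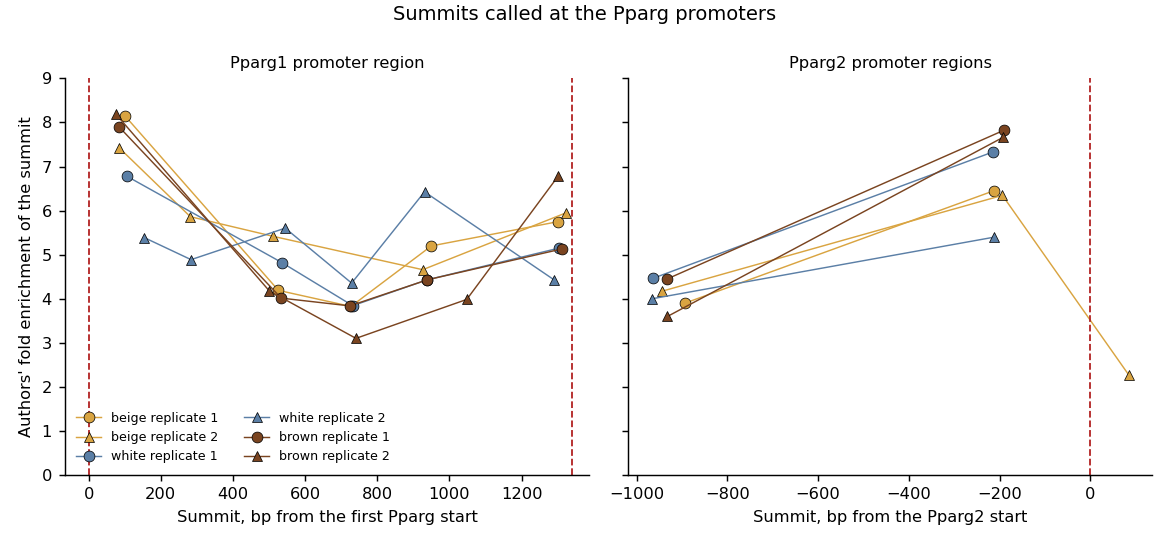
Authors' fold enrichment of every summit called at the Pparg promoters (y axis, ratio to the local background of the same library) against its position (x axis, bp from the first Pparg start on the left and from the Pparg2 start on the right), with 1 line per library and dashed lines at the annotated starts. The left panel shows a summit near each upstream start in all 6 libraries, and the right panel a summit 190 to 214 bp before the Pparg2 start.

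Inside the gene, the region with the highest percentile was +102.1 kb (chr6:115462707-115463338), at 87.2 and 91.7 in beige, 98.1 and 95.1 in white and 96.6 and 95.9 in brown. It was the strongest of the gene's regions in all 6 libraries. Both beige values were below all the others, and brown and white overlapped. The region covers a 200 bp coding exon of Pparg (chr6:115463086-115463285), in which the strongest summit of 5 of the 6 libraries lay, and it also lies within the annotated gene Gm44079, outside its exons. Its lead summit lay 9 bp before the exon, so the region is counted as intronic here. The region +63.7 kb (chr6:115424306-115424868), in the intron after the Pparg2 start, was next in 5 of the 6 libraries. It lay at 80.6 and 68.9 in beige, 88.5 and 92.6 in white and 78.2 and 85.5 in brown, with both white libraries above all the others.

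The other intronic regions of all 6 libraries were weaker. At +119.5 kb the percentiles were 44.9 and 47.9 in beige, 59.5 and 75.7 in white and 54.5 and 68.8 in brown, the beige libraries below all the others. At +109.2 kb they were 28.6 and 28.8 in beige, 44.7 and 46.7 in white and 2.68 and 39.8 in brown, the white libraries above all the others. At +29.2 kb they were 63.6 and 44.5 in beige, 60.5 and 46.9 in white and 17.4 and 41.4 in brown. This is the 1 region of the gene in which beige and white overlapped, and both brown libraries were below all the others. A further region at +22.0 kb, named here after its values were seen, was at 13.9 and 34.8 in beige, 70.6 and 68.9 in white and 40.7 in brown replicate 1, with no peak in brown replicate 2.

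**Figure D3:**
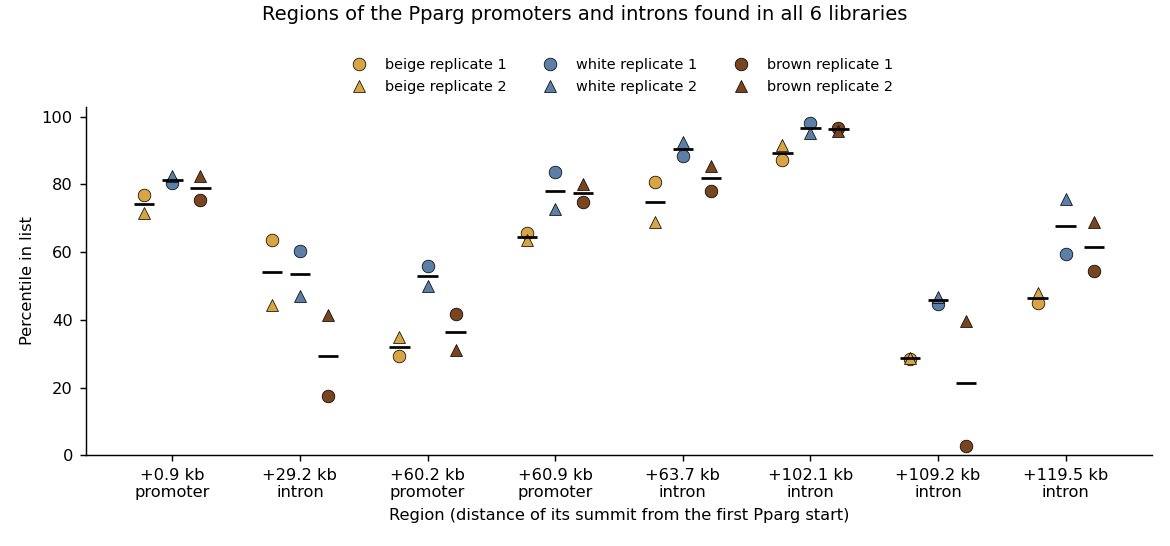
Percentile in the library's list (y axis) of the 8 regions of the Pparg promoters and introns that all 6 libraries shared (x axis), with circles and triangles for replicates 1 and 2 of beige, white and brown and a black bar at the mean of the 2 libraries. The beige points lie below both white points in 7 of the 8 regions, and overlap them at +29.2 kb.

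Over these 8 regions, beige was lower than white in rank along the gene. Both beige percentiles were below both white percentiles in 7 of the 8, against 22.1% of the regions of all 6 libraries in the genome, and above them in 0, against 25.8%. This count over the gene alone was not planned. The planned count, over the 28 such regions of the whole window, was 9 below (32.1%) and 7 above (25.0%), nearer to the genome's shares. The median difference of the means, beige minus white, was -13.5 over the 3 promoter regions and -15.8 over the 5 with an intronic lead summit, and 0.702 over the genome. Singly, the difference was larger than 8.37, the median spread of white replicates over the genome, in 5 of the 8 regions, and smaller at the Pparg1 promoter (-7.25), +102.1 kb (-7.17) and +29.2 kb (0.403). Here 2 libraries against 2 allow no two-sided exact permutation p below 0.333, so no test was made. Among the 797 other genes with at least 8 such regions in their promoter and body, 0 had a share as large as the 87.5% of Pparg. The next largest was 75.0%, in Chchd3, and the median was 25.0%. Ranked by -log10 q instead of the fold, beige was below white in 6 of the 8 and above in 0, and the Pparg1 promoter overlapped, at 87.1 and 86.5 in beige and 85.5 and 89.9 in white. These orders were narrow. The higher beige and lower white values were 80.24 and 80.4 at the Pparg2 promoter, 88.3 and 89.15 at +63.7 kb and 29.61 and 30.41 at +109.2 kb. They were 60.38 and 61.99 at +60.2 kb, 63.87 and 65.89 at +119.5 kb and 93.24 and 95.98 at +102.1 kb. The comparison among genes was made after the values of Pparg had been seen and is a description only. Its cut of 8 is the count of Pparg itself. The other genes had as many regions or more, and an extreme share is easier to reach with few regions.

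The difference is one of rank, and it depends on comparing each peak with the rest of its list. The white lists had lower folds throughout, with medians of 4.12 and 3.99 against 5.00 and 5.04 in beige and 4.97 and 4.42 in brown. On the authors' fold without ranking, both beige values were above both white values in 66.1% of the genome's regions and below in 3.09%, and in the 8 regions of Pparg in 1 and 1. On the unranked -log10 q beige was above in 3 and below in 0 of the 8, against 57.4% and 5.51% of the genome. Regions of Pparg thus ranked lower among the peaks of beige than among those of white, and on the unranked fold beige lay below white in only 1 of the 8. By the read totals in the study's reporting summary, not used in the values here, both beige libraries had fewer mapped reads than both white ones. There the total reads differed less, and a smaller share of the reads mapped in both beige libraries. The part of depth and of mapping in these differences was not tested.

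Brown shared its medium with beige. In the 8 regions both brown percentiles were above both white in 0 (22.7% of the genome's regions) and below in 4 (23.9%), and above both beige in 3 (24% of the genome's regions) and below in 1 (27.3%). The 3 regions above beige were the Pparg2 promoter, +102.1 kb and +119.5 kb, and the 1 below was +29.2 kb. The 4 regions below white were +29.2 kb, +60.2 kb, +63.7 kb and +109.2 kb. Brown replicate 1 was the lowest of all libraries at +29.2 kb and +109.2 kb and 23.9 and 37.1 percentile points below brown replicate 2 there, so these 2 regions rest on libraries that differ widely.

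The flanks did not share the order of beige and white. Of their 20 regions in all 6 libraries, both beige percentiles were above both white in 7 (25.8% over the genome) and below in 2 (22.1%), with a median difference of 5.80 over the 12 upstream and 1.96 over the 8 downstream regions. Brown was above white in 5 (22.7%) and below in 5 (23.9%), and above beige in 3 (24%) and below in 7 (27.3%). These counts are nearer to the genome than that of the gene. Those with beige above white included -128.2 kb, -122.1 kb, -70.2 kb and -11.1 kb upstream and +132.6 kb and +150.7 kb downstream. Of the 2 with beige below white, 1 was -91.9 kb, with a difference of -9.74, and the other is not reported here. Part of the flanks belongs to other genes. The 2 regions furthest upstream among these lie in the overlapping bodies of Syn2 and Gm17482.

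**Figure D4:**
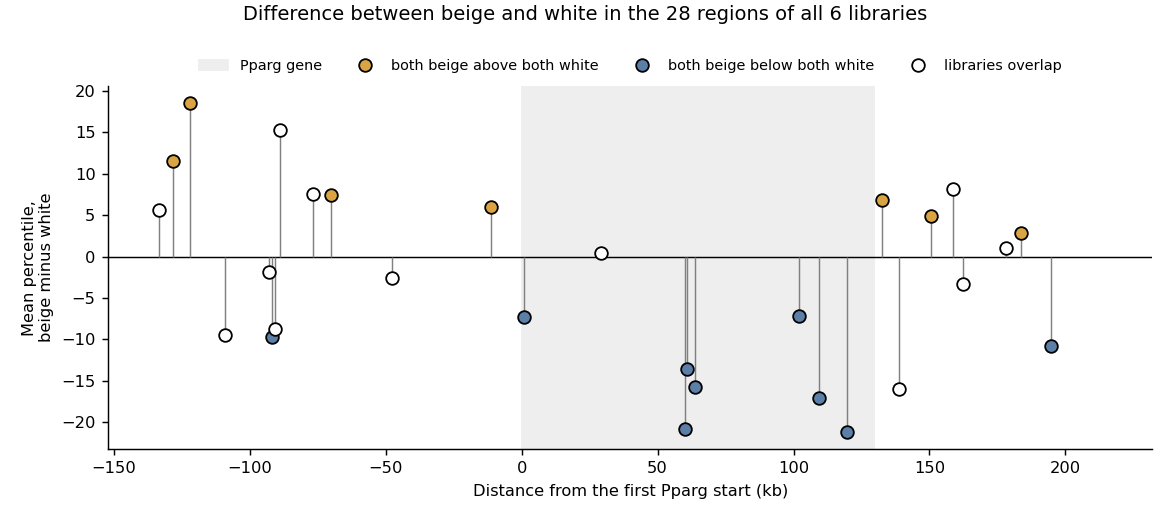
Mean percentile of the 2 beige libraries minus that of the 2 white libraries (y axis, percentile points) for each of the 28 regions found in all 6 libraries, against distance from the first Pparg start (x axis, kb), with the gene shaded. Filled points mark regions in which the libraries do not overlap; within the gene 7 of 8 are blue (beige below white), and in the flanks 7 of 20 are tan (beige above white) and 2 blue.

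Among the flanking regions outside promoters, -11.1 kb (chr6:115349403-115350188) was the strongest upstream in 5 of the 6 libraries, at 96.3 and 98.8 in beige, 93.1 and 90.1 in white and 92.3 and 89.0 in brown. Both beige libraries were above all the others. In brown replicate 2 the region -122.1 kb was stronger, at 90.5. The region -11.1 kb is the last shared one before the gene and held the glucocorticoid receptor match printed above. Further upstream, -76.6 kb was at 93.7 and 89.6 in beige, 90.0 and 78.2 in white and 88.2 and 82.2 in brown, beige above brown and overlapping white. At -70.2 kb the values were 90.9 and 85.3, 78.2 and 83.0, and 75.8 and 71.8, which orders the conditions beige, white and brown with no overlap. At -122.1 kb they were 87.2 and 87.2 in beige, 73.9 and 63.4 in white and 82.4 and 90.5 in brown, the white libraries below all the others.

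Downstream, +150.7 kb (chr6:115510939-115512078) also ordered the conditions completely: 90.2 and 88.7 in beige, 84.97 and 84.1 in white and 96.1 and 95.03 in brown, so that brown was highest and white lowest. It was among the widest of the window at 1140 bp. A complete order was also found at -91.9 kb, named after its values were seen, where weak peaks lay at 6.10 and 2.16 in beige, 13.0 and 14.8 in white and 1.10 and 0.222 in brown. The share of the genome's regions with a complete order of the conditions was not counted. The complete orders named here and above therefore cannot be set against a background. At +178.1 kb the values were 94.4 and 93.8 in beige, 90.5 and 95.5 in white and 80.1 and 92.0 in brown, and at +158.6 kb 79.1 and 79.4, 82.7 and 59.6, and 81.3 and 85.01. Beige and white overlapped in both. White replicate 2 differed from white replicate 1 by 23.1 percentile points at +158.6 kb.

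Of the neighbours, Syn2, which encodes a synaptic vesicle protein, Gm17482 and Timp4, which encodes an inhibitor of matrix metalloproteinases, had a promoter peak in all 6 libraries. Timp4 was at 48.3 and 11.0 in beige, 42.8 and 35.5 in white and 6.56 and 17.4 in brown, the brown libraries below both white ones.

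The strongest Pparg promoter peak can also be set beside the promoters of other genes. A promoter peak, with its summit within 1 kb of a start, was found in all 6 libraries for 13534 of 21827 protein-coding genes, or 62.0%. By the mean absolute difference of the percentile over the 6 libraries, the genes most like Pparg were Clip1, at 0.814 percentile points, Plppr4 at 1.10, Atp2b1 at 1.46, Klhdc7a at 1.48 and Dcun1d1 at 1.55. Of 40 genes of the PPARγ pathway, 36 had a promoter peak in all 6 libraries and 0 in none. The list holds partners and regulators such as Rxra and Cebpa, and targets such as Fabp4, a fatty acid carrier, and Adipoq, which encodes adiponectin. Fabp4 was at 43.8 and 53.8 in beige, 81.2 and 62.9 in white and 60.0 and 64.2 in brown, the beige libraries below all the others as at the Pparg2 promoter. Cebpa was at 71.9 and 65.5, 76.6 and 60.3, and 78.7 and 81.7, and Rxra at 34.5 and 29.5, 17.5 and 8.03, and 27.7 and 7.87. Adipoq was at 2.54 and 24.9 in beige, 15.6 and 46.7 in white and 62.1 and 58.2 in brown, with brown above all the others.

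The 4 exceptions of the pathway list are genes of energy metabolism. Ucp1, the uncoupling protein of brown fat, had a promoter peak in the 2 brown libraries alone, at 9.12 and 4.23. Gpd1, a glycerol phosphate dehydrogenase, had none in white and lay at 4.56 and 6.86 in beige and 0.728 and 3.80 in brown. Pck1, the gluconeogenic enzyme PEPCK, lacked a peak in beige replicate 1 and white replicate 1, and the hormone gene Fgf21 lacked one in white replicate 1. The Ucp1 and Gpd1 peaks lay near the bottom of their lists, in contrast to the promoters of Pparg.

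The label of the cells was checked by promoter peaks of marker genes. Of 10 adipocyte genes 9 had a peak in all 6 libraries, and Adrb3 lacked one in white replicate 1. Of 5 brown depot genes 2 had one in all 6. Zic1 had one in both brown libraries and in beige replicate 2, Ucp1 in the brown libraries alone, and Epsti1 in white replicate 2 alone. Of 10 macrophage genes 2, Adgre1 and Cd68, had a peak in all 6 libraries, and 6 had it in none, Csf1r, Ptprc and Spi1 among them. Cd14 had one in 4 libraries, and Lyz2 in brown replicate 1 alone. Of 10 endothelial genes 4 had one in all 6 and 3 in none, and of 10 progenitor genes 7 in all 6 and 1 in none. Over all protein-coding genes, 62.0% had a promoter peak in all 6 libraries, so the progenitor count is near that share. With lists this short, these counts say little about the identity of the cells. The part of other cells in the peaks of Pparg was not tested.

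Consensus matches were counted on both strands within 150 bp of the lead summit of each region. The C/EBP letters TTGCNNAA were found at 13 of the 28 regions of all 6 libraries, or 46.4%, against 17.3% of such regions in the genome. Among the 22 outside promoters the match was at 11, against 20.4% of 44466 in the genome. The median GC content of the windows was 49.5%, against 51.0% for the regions of all 6 libraries in the genome. At the Pparg2 promoter the match began 1 bp before the lead summit and overlaps a match to the NFI letters TTGGCA on the other strand. It lay 67 bp after the summit at +60.2 kb and 29 bp after it at +63.7 kb. The region +162.4 kb held 4 matches, the first and last of which also overlap matches to the NFI letters, and +150.7 kb held 2. The lead summit of the Pparg1 region is that of white replicate 2, and the summits of the other libraries there were not searched.

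The other letters were nearer to the genome. The glucocorticoid receptor letters ACANNNTGT were at 14.3% of the 28 regions against 8.79%, with a match at -11.1 kb 53 bp before the summit and 2 at +29.2 kb. The NFI letters were at 32.1% against 20.4%, STAT5 (TTCNNNGAA) at 14.3% against 9.64%, EBF (CCCNNGGG) at 17.9% against 15.1% and TEAD (GGAATG) at 21.4% against 19.3%. AP1 was at 25.0% against 29.03%, ETS (CNGGAAG) at 21.4% against 30.7%, and KLF and SP (CCNCNCCC) at 25.0% against 39.9%. CTCF matched at 1 of the 58 regions, against 3.025% of all regions. The PPARG DR1 consensus, the direct repeat that PPARγ and RXR bind, matched at 0 of the 58, against 0.320% of all regions. At so small a share, a count of 0 is near the background. A match describes the letters and does not show that a factor was bound.

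**Figure D5:**
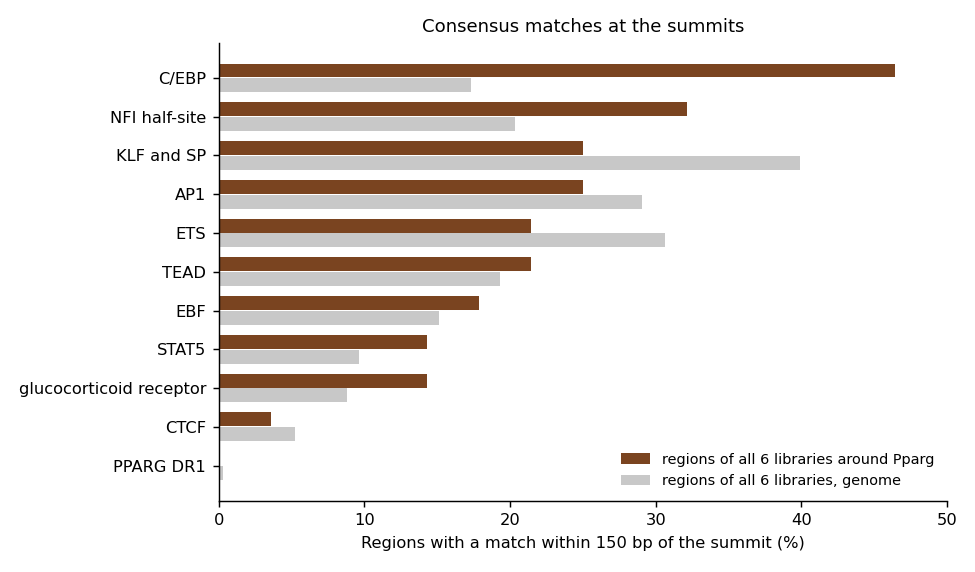
Share of regions (x axis, %) with a match to each consensus (y axis) within 150 bp of the lead summit, for the 28 regions of all 6 libraries around Pparg (brown) and for all such regions in the genome (grey). C/EBP has the largest difference, 46.4% against 17.3%.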

How the data were processed

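Chromatin was profiled by ATAC-seq in 2 libraries each of beige, white and brown adipocytes, and the deposited narrowPeak lists were used. Per the study's methods and the submitters' processing notes, the authors trimmed reads with Trimmomatic, aligned them with BWA to mm10 and called peaks with MACS2 in each library on its own. Reads are not used here, so whether they were shifted for the transposase is not known, and the lists hold no depth, so no counting interval is given. The study's reporting summary gives read totals for the beige and white libraries, which were not used. The deposited columns hold the ratio of signal to local background at each summit (fold enrichment), its -log10 p-value and -log10 q-value, and a display score. The authors kept summits with q under 0.05, and the lowest -log10 q in the lists was 1.301.

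Lines with the same interval were taken as 1 peak, at its summit of highest -log10 q. Peaks were ranked by fold within their list, and intervals that overlapped by at least 1 bp were merged over the 6 libraries. A promoter peak had its summit within 1 kb of a GENCODE M21 start. All values are given per library with no test, because 2 libraries against 2 allow no two-sided exact permutation p below 0.333, and the same counts over all regions of the genome stand beside those of the window. Non-overlap means that both libraries of a condition lay above, or below, both of the other. The regions named were the promoters, every region with a pattern of 1 condition or of brown with one other, and the 10 strongest regions of all 6 libraries outside promoters. The +22.0 kb region, the remaining regions of the gene and the flanking regions listed by distance were added after their values were seen. The genes named were the neighbours, the 5 most like Pparg, the pathway genes without a peak in every library and 4 examples. Some neighbouring genes and regions that fall under these rules are not reported here. The gene, the lists and these rules were chosen with earlier results of these data known.

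Matches to consensus letters were searched on both strands within 150 bp of the lead summit of a region, the one ranked highest in its list by -log10 q, in the NCBI GRCm38 genome. The alternatives were other q thresholds, equally long lists, summit clusters, a reciprocal overlap, other windows, ranking by -log10 q and leaving out each library, and, chosen after seeing the data, unranked or rescaled folds. The counting steps were tested on simulated data. Tables were handled with pandas 2.3.3 and numpy 2.4.6 under Python 3.11.15, and figures were drawn with matplotlib 3.10.9.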

Additional observations from a re-analysis of the deposited data

How the results depend on the processing

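Of 264 values computed under the alternatives, 201 stayed close to those above (within 1 SD, or for counts within 1.5 times) and 63 moved. The percentiles order the peaks of 1 library and carry no depth, so a difference between conditions in total accessibility cannot be seen, and weak peaks found in some libraries may be missing from others for lack of depth. With 2 libraries per condition, each non-overlap count changes with single libraries. No paired analysis was possible because the results come from no test. The cause of the changes below was not tested, except that the smaller window, with 35 regions, 16 of them in all 6 libraries, and 25 and 28 peaks in beige, 27 and 27 in white and 23 in brown replicate 2, holds fewer by its construction.

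The presence patterns changed by few regions. The count in both beige and both brown and no white library, 0 above, was 1 at q under 0.01, in equally long lists of 109143 peaks, with summits clustered at 150 bp and with a reciprocal overlap of 0.5. Beige alone was 1 at q under 0.01, and white with brown and brown alone were 1 each with summit clusters. Over the runs that left out 1 library, the count of regions in all libraries was 28 to 30, beige with brown and no white 0 to 2, white with brown 0 to 2, beige alone 0 to 3, white alone 0 to 2 and brown alone 0 to 4. The highest values came without white replicate 2 (beige with brown, white alone), brown replicate 1 (white with brown), beige replicate 1 (beige alone) and brown replicate 2 (brown alone, with 3 without brown replicate 1).

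In the whole window beige was above white in 7 and below in 9 regions. With 1 library left out these were 7 to 12 and 9 to 14, with 12 above without white replicate 1, 11 without beige replicate 2 and 14 below without beige replicate 1. Brown was above white in 5 to 11 and below in 9 to 15 (5 and 9 with all libraries), with 11 above without white replicate 1, 8 above without brown replicate 1, and 15 below without white replicate 2 or brown replicate 2. It was above beige in 6 to 13 and below in 8 to 12 (6 and 8 with all), with 13 above without beige replicate 1 or brown replicate 2 and 11 without brown replicate 1. The shares of the genome rose too, from 25.8% to 44.0% for beige above white without white replicate 1 and from 22.1% to 32.0% for beige below white without beige replicate 1. They reached 40.4% for brown above white without white replicate 1, 39.2% for brown below white without white replicate 2 and 36.7% for brown above beige without brown replicate 2. Brown was below white in 5 of 23 regions at q under 0.00001 (21.8% of the genome's regions). It was below white in 4 of 21 with the reciprocal overlap (22.8%), which left brown below beige in 5 of 21 (25.7%). Ranked by -log10 q, brown was above beige in 3 of 28 (18.4%). On the unranked fold, added after seeing the data, beige was above white in 15 of 28 (66.1%) and below in 2 (3.09%). On the unranked -log10 q these were 15 (57.4%) and 1 (5.51%).

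With 1 library left out, beige was below white in 7 to 8 regions of the gene and above in 0 to 1, the 1 above without beige replicate 2. There were 8 regions each time except 9 without brown replicate 2. Leaving out a library cannot make non-overlapping conditions overlap, so the count below could only stay or rise. The genome's share with beige below white was 22.1% to 39.6% in these runs. Under the other alternatives that rank or rescale within a list, 6 to 8 regions were left, with 5 to 7 below and 0 above. The genome's share below was 14.8% to 24.8% there. On the unranked fold beige was below white in 1 and above in 1, and on the unranked -log10 q in 0 and 3.

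The Pparg1 promoter moved to 68.1 in beige, 75.1 in white and 73.0 in brown at q under 0.00001, to 79.5 in white in equally long lists, and to 86.8 in beige and 87.7 in white ranked by -log10 q, which brought these means closer than their spread. The Pparg2 promoter moved to 56.3 in beige and 70.9 in brown at q under 0.00001, to 60.03 in beige in equally long lists and to 79.8 in beige and 83.8 in brown by -log10 q, with white at 82.9 ± 3.53, so that beige and white differed by less than the white SD. With a promoter of 3 kb, which takes in the +63.7 kb region, it was 74.8 in beige, 90.6 in white and 81.8 in brown. With 1 library left out the mean is the other library's value, given above.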
